A study of Arabidopsis thaliana with 24 samples.

Results

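The 35 genes described here encode enzymes of the Calvin cycle and of photorespiration in Arabidopsis thaliana. They were taken by locus from a list of 35 named by pathway, drawn up with earlier results of these data known, although no measured value enters the rule: 22 belong to the Calvin cycle (Rubisco small subunits and activase, enzymes of the reduction and regeneration phases, and CP12) and 13 to photorespiration. Of the 35, 31 had a row in at least one of the deposited gene or splicing tables, which together held 4752 loci. RNA came from whole seedlings of 4 lines in darkness or red light, in 8 groups of 3 libraries. All lines have the Col-0 background. The wild type is Col-0, and MLB carries PHYB, the gene of the red light receptor phytochrome B, behind the ML1 promoter, which is active in the epidermis, in the phyB-9 mutant, so that the receptor is meant to be made in the epidermis alone. EMS27 and rrc1-689 are rrc1 mutants, and the study sets them against MLB and Col-0, in that order. RRC1 is a protein linked to pre-mRNA splicing and phyB signalling. Whether EMS27 carries other mutations is not given in the sources used here. It is not established here whether EMS27 also carries the transgene and the phyB-9 mutation of MLB. Values of MLB over EMS27 are thus read as differences between these lines. Seeds were kept cold for 2 days, received white light (50 µmol/m2/s) during 6 h, and then stayed 60 h either dark or under red light (19 µmol/m2/s). The labels give 4 °C for every step, and it is not clear that seedlings grew at this temperature. Gene comparisons exist for MLB in red light over MLB in darkness and for MLB over EMS27 in red light. Splicing events come from the red-light libraries of MLB and EMS27 and of Col-0 and rrc1-689.

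The Calvin cycle fixes CO2 in the chloroplast stroma: Rubisco joins CO2 to ribulose bisphosphate, the product is reduced to triose phosphate, and most of that triose is rebuilt into the acceptor. Rubisco also accepts oxygen, which gives 2-phosphoglycolate, and photorespiration returns its carbon through chloroplast, peroxisome and mitochondrion to glycerate. Genes of both routes are known to be expressed weakly in seedlings kept in darkness and strongly in green seedlings.

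In MLB, 30 of the 35 genes rose in red light and none fell, by the criteria of the authors' deposited table (absolute log2 fold change above 1 and FDR below 0.01). That is 85.7%, beside 12.8% of the 19916 genes tested that rose and 6.76% that fell, or 19.5% in either direction. The 30 rises ran from a log2 fold change of 1.03 for CAT2 to 4.47 for RCA in the authors' deposited table, with a median of 2.52 beside 1.75 for all 2540 genes listed as higher. The Calvin cycle genes rose in 18 of 22 cases (median log2 fold change 2.52 in the authors' deposited table) and the photorespiration genes in 12 of 13 (median 2.72). In the authors' deposited table, 22 of the 35 rose by more than 4-fold, beside 5.13% of all genes tested. Of the 35, 13 were among the 500 largest rises of the 19916 genes tested, although none was among the first 100. The table holds only genes past both criteria and no value per library, so a gene without a row may be unchanged, changed by less, or not tested. In RNA of whole seedlings, fewer cells of a type and less RNA per cell cannot be told apart.

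**Figure D1:**
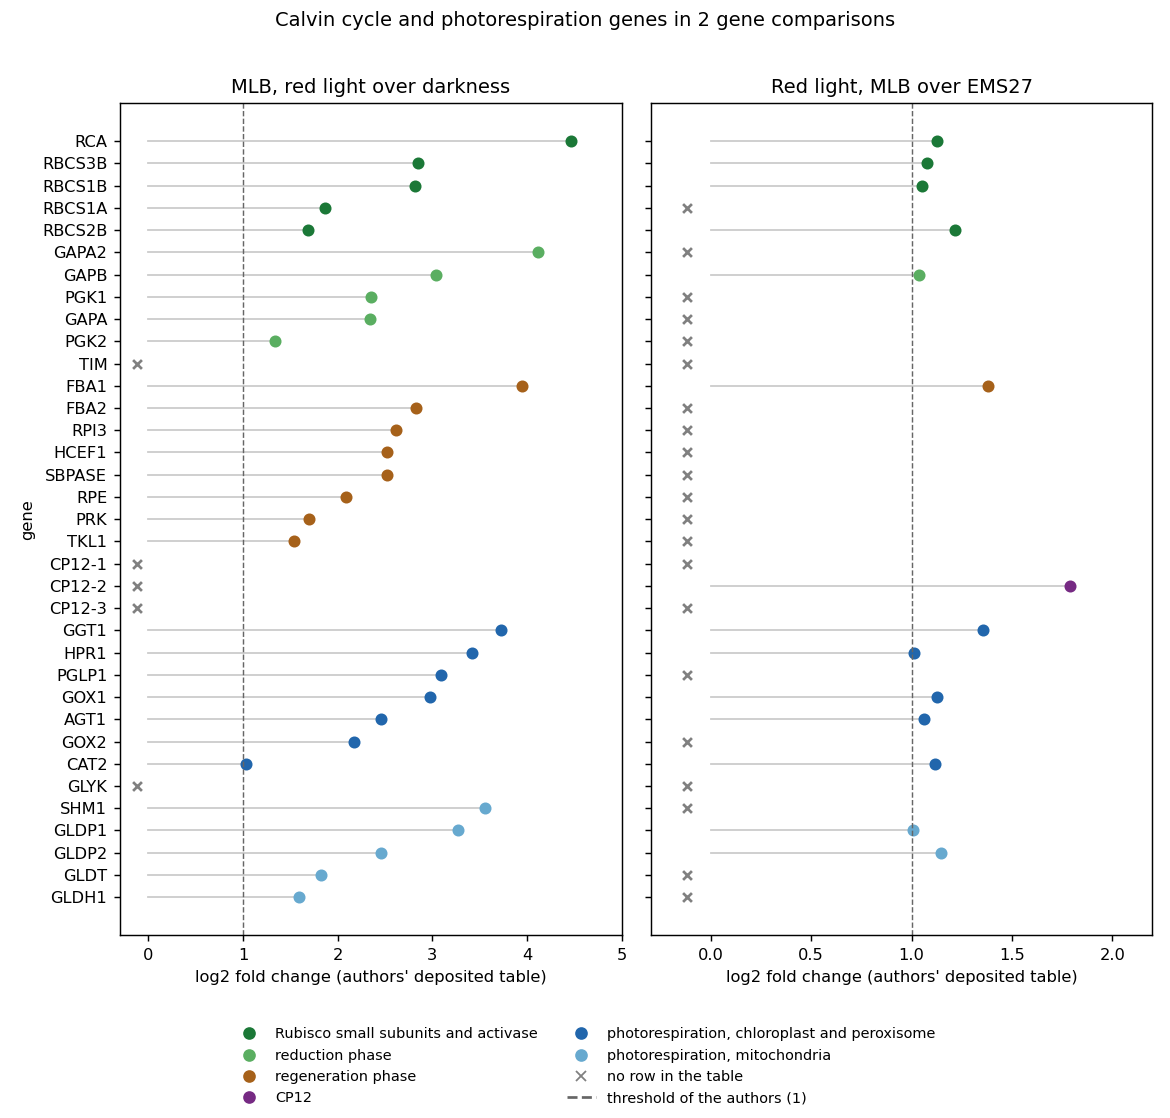
Log2 fold change (horizontal axis, authors' deposited table) of each of the 35 genes, coloured by role, in MLB in red light over darkness (left) and in MLB over EMS27 in red light (right). Dots are listed genes, crosses left of 0 are genes with no row and hence no value, and the dashed line is the authors' threshold of 1. Of the listed genes, 30 on the left and 14 on the right all lie above 1, and the 2 axes have different ranges.

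All 5 genes of Rubisco small subunits and activase rose in red light. RCA, which encodes the activase that frees Rubisco of bound sugar phosphates, had the largest rise of the 35, with a fold change of 22.1 and an FDR of 1.49e-117 in the authors' deposited table. The small subunit genes RBCS3B and RBCS1B rose by factors of 7.20 and 7.06 in the authors' deposited table, and RBCS1A and RBCS2B, which encode the same subunit, rose 3.65-fold and 3.21-fold. RBCS1B, RBCS2B and RBCS3B lie next to each other on chromosome 5, 1095 and 2264 bases apart. Their coding sequences are 94.1% to 97.3% identical, with up to 230 bases in a row the same (RBCS1B and RBCS3B), while RBCS1A on chromosome 1 is 87.7% to 90.1% identical to them. How reads that fit several copies were counted is not given in the sources used here, so the values of the 3 neighbours are uncertain as values of single genes.

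In the reduction phase, 5 of 6 genes rose. GAPA2, one of 2 genes for the A subunit of the plastid glyceraldehyde-3-phosphate dehydrogenase, rose 17.4-fold, its partner GAPB, the B subunit, 8.24-fold, and GAPA 5.06-fold in the authors' deposited table. The locus of GAPA overlaps another gene, AT3G26640, which was not separated from it here. PGK1 and PGK2, which encode phosphoglycerate kinases, rose by factors of 5.1 and 2.53 in the authors' deposited table. Their coding sequences are 86.3% identical. The plastid triose phosphate isomerase gene TIM (AT2G21170) had no row.

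In the regeneration phase, all 8 genes rose. FBA1, a plastid aldolase, rose 15.4-fold with an FDR of 1.07e-177 and stood 166th of 19916 genes by p-value, the best place of the 35 in the authors' deposited table. Its sister FBA2 rose 7.08-fold in the authors' deposited table. Rises of 6.13-fold for RPI3 (ribose-5-phosphate isomerase), 5.76-fold for HCEF1 (plastid fructose-1,6-bisphosphatase) and 5.73-fold for SBPASE (sedoheptulose-1,7-bisphosphatase) followed in the authors' deposited table. Both phosphatases catalyse irreversible steps of regeneration. RPE (ribulose-5-phosphate 3-epimerase) rose 4.26-fold, PRK (phosphoribulokinase, which makes the CO2 acceptor) 3.24-fold and TKL1 (transketolase) 2.91-fold, per the authors' deposited table. None of the 3 CP12 genes, whose small proteins bind GAPDH and PRK in the dark, had a row: CP12-1 (AT2G47400), CP12-2 (AT3G62410) and CP12-3 (AT1G76560).

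Among photorespiration genes of chloroplast and peroxisome, 7 of 8 rose. PGLP1 encodes the phosphatase that starts the pathway on 2-phosphoglycolate, and it rose 8.53-fold in the authors' deposited table. Its coding sequence is identical to that of PGLP1B, so this value may hold reads of both copies. GOX1 and GOX2, the neighbouring genes of glycolate oxidase, rose by factors of 7.89 and 4.52 in the authors' deposited table. Their coding sequences are 90.9% identical, with up to 68 bases in a row the same, and how shared reads were counted is not given here either. The largest rises of the group were those of GGT1 (glutamate:glyoxylate aminotransferase, 13.2-fold) and HPR1 (hydroxypyruvate reductase, 10.7-fold) in the authors' deposited table. AGT1, the serine:glyoxylate aminotransferase, rose 5.51-fold, and CAT2, the catalase that removes the peroxide made by glycolate oxidase, rose 2.05-fold, just past the threshold of the authors' deposited table. GLYK (AT1G80380), the glycerate kinase that closes the pathway, had no row.

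All 5 mitochondrial genes rose. SHM1, the serine hydroxymethyltransferase, rose 11.8-fold in the authors' deposited table. Of the glycine decarboxylase genes, GLDP1 and GLDP2 (the P protein) rose 9.64-fold and 5.51-fold, GLDT (the T protein) 3.55-fold and GLDH1 (an H protein) 3-fold, per the authors' deposited table. The FDR of the 30 rises was at most 1.17e-14, that of CAT2, in the authors' deposited table.

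**Figure D2:**
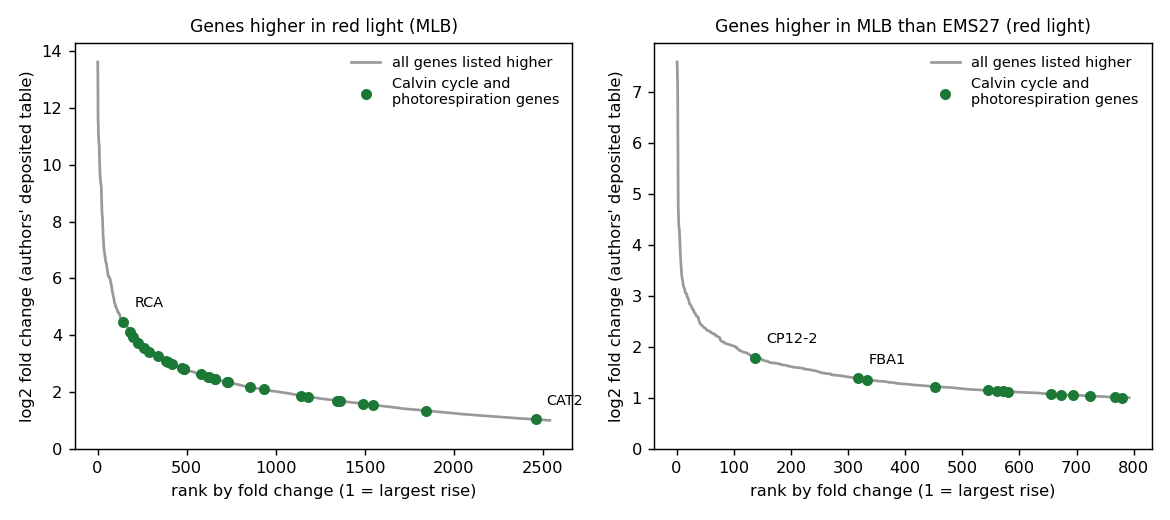
Log2 fold change (vertical axis, authors' deposited table) against rank by fold change (horizontal axis, 1 is the largest rise), for genes higher in red light in MLB (left, 2540 genes) and for genes higher in MLB than in EMS27 (right, 792 genes). The grey line is all listed genes and the dots are the 30 and 14 Calvin cycle and photorespiration genes, of which 24 of 30 exceed the median of all listed rises on the left and 3 of 14 on the right.

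Genes around the 2 pathways were counted in the same way, from lists of other isoforms and of genes that assemble, regulate, feed or drain them. Excluding the glyoxylate list described last, 33 of 66 rose (50%) and 2 fell, beside the 12.8% and 6.76% of all genes tested. Thioredoxins and their reductases, which switch Calvin cycle enzymes on in the light, rose in 8 of 9 cases, led by TRXF1 (log2 fold change 3.76), TRXF2 (2.69) and TRXM4 (2.60) in the authors' deposited table. Rubisco assembly and CO2 supply rose in 7 of 12, led by CA1 (a plastid carbonic anhydrase, 5.14), CBBY (a phosphatase of Rubisco inhibitors, 3.58) and RBCX1 (a Rubisco assembly chaperone, 3.01) on the log2 scale of the authors' deposited table. The loci of CA1 and CBBY overlap other loci. Export, starch and sucrose genes rose in 4 of 7, with log2 fold changes of 2.35 for the triose phosphate translocator TPT, 2.1 for APL1 and 1.75 for APS1, subunits of the starch enzyme ADP-glucose pyrophosphorylase, in the authors' deposited table.

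Other photorespiration genes rose in 11 of 23 cases and fell in 1. The largest rises were those of PGLP1B (log2 fold change 3.08), GLN2 (2.75) and GGT2 (2.75) in the authors' deposited table. PGLP1B is the copy of PGLP1, and the values of both may hold the same reads. GLN2 is the plastid glutamine synthetase that recaptures ammonia, and GGT2 the second aminotransferase of its kind. CAT3, another catalase, fell, with a log2 fold change of -1.45 in the authors' deposited table, while CAT2 rose. The other plastid isoforms of the Calvin cycle, FBA3 and TKL2, had no row, and neither did rbcL, the large subunit of Rubisco. The gene annotation used here held no position for rbcL, and whether the authors tested it is not known. Of the cytosolic counterparts, 3 of 12 rose and 1 fell. They were led by the aldolase FBA5 (log2 fold change 6.04, locus overlapping AT4G26520), the cytosolic fructose-1,6-bisphosphatase cFBP (1.45) and the ribose-5-phosphate isomerase RPI2 (1.40), with the aldolase FBA6 at -1.05 in the authors' deposited table.

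Genes of the glyoxylate cycle and of seed oil use, the route by which a seedling turns stored oil into sugar before it photosynthesises, moved the other way: none of 8 rose and 5 fell. The falls were largest for isocitrate lyase ICL (log2 fold change -3.99), for PCK1 (phosphoenolpyruvate carboxykinase, -2.42) and for malate synthase MLS (-2.05) in the authors' deposited table. CSY3 (-1.35) and MFP2 (-1.24) also fell there, per the authors' deposited table. Markers of cell types changed as well. All 3 stomatal lineage markers (log2 fold change 1.12 to 2.1) and all 3 root hair markers (2.01 to 2.21) rose, 1 of 4 vascular markers rose (XCP1, 1.08), and none of 4 epidermal markers had a row in the authors' deposited table. Their part in the result was not tested.

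**Figure D3:**
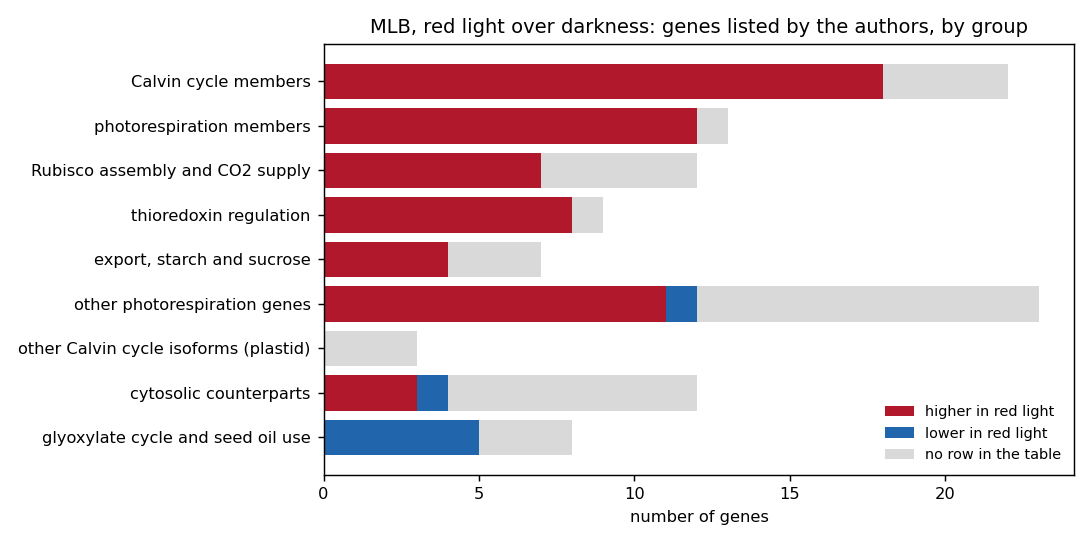
Number of genes (horizontal axis) listed in the authors' deposited table as higher or lower in MLB in red light than in darkness, or without a row, for the members of both pathways and for each list of related genes. Of the members, 18 of 22 and 12 of 13 are higher, and the glyoxylate and seed oil list is the one with falls only, 5 of 8.

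In red light, 14 of the 35 genes were higher in MLB than in EMS27 and none was lower by the same criteria. That is 40%, beside 4.14% of the 19143 genes tested that were higher in MLB and 1.85% that were higher in EMS27, or 5.99% in either direction. The differences were small: their median log2 fold change was 1.12 in the authors' deposited table, against 1.27 for all 792 genes listed as higher in MLB. In that authors' deposited table, 6 of the 14 lay between 1 and 1.1 (21.7% of all genes listed as higher did), and 13 lay at or below 1.5 (68.4% of all). Photorespiration genes were higher in 7 of 13 cases and Calvin cycle genes in 7 of 22. Both gene comparisons use the same 3 MLB red-light libraries, so they are not independent of each other.

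Of Rubisco small subunits and activase, 4 of 5 were higher in MLB. RBCS2B was 2.32-fold higher, RCA 2.18-fold, RBCS3B 2.11-fold and RBCS1B 2.07-fold in the authors' deposited table, and RBCS1A had no row. For red light over darkness, the corresponding rises were 3.21, 22.1, 7.20 and 7.06 in the authors' deposited table. GAPB was the only listed gene of the reduction phase, 2.05-fold higher in MLB, and FBA1 the only one of the regeneration phase, 2.60-fold higher with an FDR of 2.92e-26 in the authors' deposited table. TIM, PGK1, PGK2, GAPA, GAPA2, PRK, SBPASE, FBA2, HCEF1, TKL1, RPE and RPI3 had no row.

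CP12-2 had the largest difference of the 35 between MLB and EMS27. It was 3.45-fold higher in MLB (log2 fold change 1.79) with an FDR of 3.17e-128, and stood 8th of 19143 genes by p-value in the authors' deposited table. It is 637 bases long and lies on chromosome 3 at 23090944 to 23091580 (TAIR10). By size it stood 138th among genes above EMS27 in the authors' deposited table. It had no row in the comparison of red light with darkness.

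In photorespiration, GGT1 was 2.56-fold, GOX1 2.19-fold, CAT2 2.17-fold, AGT1 2.09-fold and HPR1 2.02-fold above EMS27 in the authors' deposited table. GLDP2 was 2.21-fold and GLDP1 2.01-fold higher, the latter at the edge of the threshold in the authors' deposited table. CAT2 had similar folds in both comparisons, 2.05 for red light over darkness and 2.17 for MLB over EMS27, per the authors' deposited table. PGLP1, GOX2, GLYK, SHM1, GLDT and GLDH1 had no row. Of the 66 related genes, 3 were higher in MLB (4.55%, near the 4.14% of all genes tested) and none lower: CA1 (log2 fold change 1.27), RBCX2 (1.09), a Rubisco assembly chaperone, and GGT2 (1.03) in the authors' deposited table. None of the 8 glyoxylate and seed oil genes and none of the 14 cell type markers had a row in this comparison.

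The stretch before the annotated start of each gene was read from the TAIR10.1 genome, 250 bases on the gene's strand, since many of the 35 rose together. A G-box (CACGTG), the core bound by several light signalling factors, was found on either strand in 5 of the 35 stretches (14.3%) and in 6.49% of the 27443 stretches of protein-coding genes. The 5 are those of GGT1, PRK, HCEF1, GLDP1 and RBCS2B. An I-box (GATAAG), an element first described in promoters of Rubisco small subunit genes, was found in 6 of 35 (17.1%), against 12.3% of all. The 6 are those of CP12-3, GLDP2, RCA, HCEF1, CP12-2 and RBCS2B. An evening element (AAAATATCT), a motif of clock-controlled genes, was in none of the 35 and in 2.36% of all. No G-box overlapped an I-box in the stretches shown, a match does not show binding, and an annotated start may lie upstream of the start used in seedlings. Shown are the stretches of RBCS2B and HCEF1, which hold both motifs, of RCA, with the largest rise in red light, and of CP12-2, with the largest difference between MLB and EMS27. RBCS2B is read from chr5:15382072-15382321 and RCA from chr2:16573693-16573942, both on the minus strand. HCEF1 is read from chr3:20016587-20016836 and CP12-2 from chr3:23090694-23090943, both on the plus strand. Capitals mark the G-box and the I-box on either strand.
RBCS2B upstream: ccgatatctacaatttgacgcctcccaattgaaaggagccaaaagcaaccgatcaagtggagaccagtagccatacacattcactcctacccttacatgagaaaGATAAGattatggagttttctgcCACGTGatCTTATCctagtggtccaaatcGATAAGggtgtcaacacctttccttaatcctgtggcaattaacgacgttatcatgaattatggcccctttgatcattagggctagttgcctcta
RCA upstream: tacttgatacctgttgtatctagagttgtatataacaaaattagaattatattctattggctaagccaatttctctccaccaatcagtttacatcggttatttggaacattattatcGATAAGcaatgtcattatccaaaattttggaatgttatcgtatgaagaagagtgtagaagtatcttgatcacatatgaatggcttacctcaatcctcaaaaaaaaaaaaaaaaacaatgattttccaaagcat
HCEF1 upstream: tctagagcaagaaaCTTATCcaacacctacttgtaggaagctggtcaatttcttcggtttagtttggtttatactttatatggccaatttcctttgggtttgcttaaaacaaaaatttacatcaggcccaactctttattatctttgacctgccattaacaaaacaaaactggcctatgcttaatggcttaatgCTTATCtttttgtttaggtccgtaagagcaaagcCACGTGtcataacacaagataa
CP12-2 upstream: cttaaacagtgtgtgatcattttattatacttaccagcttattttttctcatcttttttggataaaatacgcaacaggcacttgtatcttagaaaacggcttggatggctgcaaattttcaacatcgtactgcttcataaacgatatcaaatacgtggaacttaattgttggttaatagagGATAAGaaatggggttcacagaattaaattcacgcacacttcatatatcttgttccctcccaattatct
RBCS2B held 1 G-box and 3 I-boxes, the I-boxes beginning 146, 115 and 94 bases before the annotated start and the G-box 123. HCEF1 held 1 G-box, 22 bases before the start, and 2 I-boxes on the other strand. RCA and CP12-2 held 1 I-box each, 133 and 69 bases before the start.

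Splicing was listed by the authors for 1 of the 35 genes, GOX2, and for 1 related gene, PGLP1B, among 264 genes with an event for MLB and EMS27 and 270 for Col-0 and rrc1-689. How many genes were examined for splicing is not given in the sources used here, so no background share can be set beside this count. The GOX2 event concerns the intron after exon 7, which has 2 annotated donor sites 18 bases apart. The intron from the first donor runs over chr3:4819755-4819884 on the plus strand (130 bases) and begins with gc, a rare donor. The intron from the second donor runs over chr3:4819773-4819884 (112 bases), begins with gt, and is found in 1 of 3 annotated transcripts. The 18 bases are coding and keep the reading frame. The neighbouring gene GOX1 has an annotated donor at the place of the first, also gc, and further donors there were not searched for. GOX2 is shown from chr3:4819688-4819884 and GOX1 from chr3:4822829-4823023, both on the plus strand of TAIR10.1, from the start of exon 7 to the end of the intron. Capitals mark the bases between both GOX2 donors and as many bases at the same place in GOX1.
GOX2 exon 7 and the intron after it: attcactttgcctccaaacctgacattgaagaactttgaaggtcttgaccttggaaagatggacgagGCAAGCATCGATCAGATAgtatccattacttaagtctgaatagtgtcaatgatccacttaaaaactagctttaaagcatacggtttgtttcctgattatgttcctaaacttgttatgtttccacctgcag
GOX1 exon 7 and the intron after it: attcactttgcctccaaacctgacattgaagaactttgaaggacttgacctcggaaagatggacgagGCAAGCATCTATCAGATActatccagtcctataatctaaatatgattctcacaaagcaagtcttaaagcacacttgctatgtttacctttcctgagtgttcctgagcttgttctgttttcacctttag
Over these 18 bases and the next 2, GOX1 differs from GOX2 by G10T and G19C, counted from 1 at the first base of the intron, and so reads ct at the place of the second GOX2 donor gt.

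**Figure D4:**
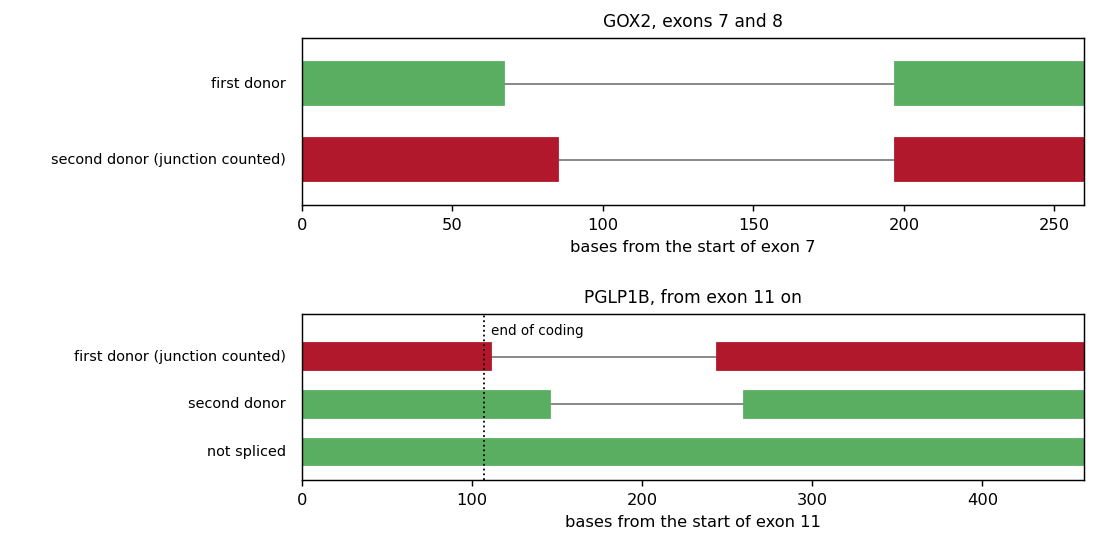
Annotated ends of GOX2 exon 7 (top) and of PGLP1B from exon 11 on (bottom), in bases from the start of that exon (horizontal axis). Boxes are exon sequence, thin lines are introns, red marks the form whose junction reads were deposited, and the dotted line is the end of the coding sequence, 107 bases into exon 11. The second GOX2 donor lies 18 bases after the first, and the first PGLP1B donor 35 bases before the other.

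Junction reads from the second GOX2 donor numbered 0, 6 and 0 in the 3 MLB red-light libraries and 12, 10 and 9 in the 3 EMS27 libraries. Every EMS27 library exceeded every MLB library. Reads running across that donor into the intron numbered 10, 14 and 14 in MLB and 18, 16 and 14 in EMS27. Reads running across the acceptor numbered 8, 9 and 9 in MLB and 13, 21 and 3 in EMS27. The junction from the first donor is not among the counted reads, so the level of this event is the share of retention against the second donor only, not against all spliced transcripts. That level was 88.6% ± 19.8 (SD, n = 3) in MLB and 56.6% ± 8.17 (SD, n = 3) in EMS27. The 0 reads of MLB replicates 1 and 3 allow a junction share of up to 30% and 21.4% of the reads at the donor. MLB replicate 2 had a share of 30%. The mean share was 10% ± 17.3 (SD, n = 3) in MLB and 39.2% ± 0.771 (SD, n = 3) in EMS27. Across the 325 listed events, limma on the logit of the level gave a difference of -2.43 for EMS27 minus MLB (SE 0.84, Benjamini-Hochberg adjusted p = 0.0292). Of these events 89.5% passed the same threshold of 0.05 and 31.4% passed with a lower level in EMS27, since the authors had listed them for a difference. The call rested on few reads. With a smaller number added to the reads (0.1 in place of 0.5), the difference was -3.49 with an adjusted p of 0.0515 in limma. Without MLB replicate 1 or 3 it was -1.97 or -1.85 (adjusted p 0.0873 and 0.1 in limma), and without EMS27 replicate 1 or 3 it was -2.42 or -2.27 (adjusted p 0.067 and 0.0801 in limma). With weights from the reads, the difference was -0.84 with an adjusted p of 0.163 in limma. The authors' deposited table also gives a change in use of this intron of 0.73 on the log2 scale, with a bin FDR of 0.00579, and does not state its direction. In 277 of 283 events other than alternative splice sites its sign was opposite to that of the control minus mutant difference in fraction, and GOX2 is among the 6 where both signs were the same. Read as mutant over control, as in the 277, intron use in the authors' deposited table was thus higher in EMS27 while the level was lower. Summed over libraries, raw reads across the donor numbered 38 in MLB and 48 in EMS27, and those across the acceptor 26 and 37. In the table of Col-0 and rrc1-689, GOX2 had no row.

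The PGLP1B event lies behind the end of the coding sequence. Its intron, chr5:14481092-14481224 on the minus strand (133 bases), starts 4 bases after the last coding base, in the 3′ untranslated region. The annotation has a second intron in the same exon, chr5:14481076-14481189 (114 bases), and of 3 transcripts 1 has no intron there. The donors differ in their surroundings, which are shown from chr5:14481213-14481236 for the event and from chr5:14481178-14481201 for the other intron, on the minus strand of TAIR10.1, with the first 2 bases of each intron in capitals.
PGLP1B donor of the event: ctgtataatctaGTaagccccgcg
PGLP1B other annotated donor: gtagaactcaggGTactgaatcta
PGLP1B and the member gene PGLP1 have coding sequences that are 100% identical, and the 260 bases from the start of exon 11, which include the event, are identical too. Reads of both copies can therefore not be told apart, and the event may belong to PGLP1, to PGLP1B or to both.

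Junction reads of this event numbered 16, 32 and 38 in MLB and 59, 56 and 53 in EMS27. In Col-0 they numbered 13, 16 and 14, and in rrc1-689 47, 48 and 51. All mutant libraries exceeded all libraries of their control line. Reads across the donor, raw and not scaled for depth, were fewer in the mutants, at 661, 732 and 686 in MLB, 467, 415 and 380 in EMS27, 840, 902 and 833 in Col-0 and 712, 782 and 716 in rrc1-689. Reads of this event, boundaries and junction together, made up 2.97%, 3.17% and 3.33% of all listed event reads in MLB. In EMS27 they made up 2.14%, 2.09% and 1.82%. In Col-0 they made up 2.5%, 2.7% and 2.46%, and in rrc1-689 2.39%, 2.69% and 2.34%, so these last lines overlapped. Reads across the donor come from unspliced transcripts and from those spliced at the second donor alike. The acceptor of the event lies inside the other annotated intron, so reads across it leave out transcripts spliced at the second donor. Reads across the acceptor averaged 95.3 in MLB, 66.3 in EMS27, 84.7 in Col-0 and 71.7 in rrc1-689. Those across the donor averaged 693, 421, 858 and 737. The level of this event is thus not a measure of intron retention alone. Junction reads made up 3.93% ± 1.46 (SD, n = 3) of the reads at this donor in MLB, 11.8% ± 0.52 (SD, n = 3) in EMS27, 1.64% ± 0.11 (SD, n = 3) in Col-0 and 6.21% ± 0.433 (SD, n = 3) in rrc1-689. The level computed as the authors did, with both boundaries, was 93.3% ± 2.33 (SD, n = 3) in MLB and 81.2% ± 1.03 (SD, n = 3) in EMS27. It was 97.1% ± 0.172 (SD, n = 3) in Col-0 and 89.2% ± 0.943 (SD, n = 3) in rrc1-689. In limma the logit of the level was lower in EMS27 than in MLB by a difference of -1.21 (SE 0.29, adjusted p = 0.00899) and lower in rrc1-689 than in Col-0 by one of -1.37 (SE 0.21, adjusted p = 0.00204). In the latter comparison 88.7% of the 328 events listed by the authors passed the threshold and 25.3% passed with a lower level in the mutant. The effects in EMS27 and rrc1-689 differed by 0.16 (SE 0.31, adjusted p = 0.977 in limma's interaction contrast), which does not show that they are alike. The contrast ran over 136 shared events, of which 3, or 2.21%, passed. These 136 are the events that the authors had listed for a difference in both comparisons, so that share holds for them only. At the gene level PGLP1 and PGLP1B had no row for MLB over EMS27. Their log2 fold changes in MLB for red light over darkness, 3.09 and 3.08 in the authors' deposited table, may be 1 shared signal, since how reads of identical copies were counted is not known.

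**Figure D5:**
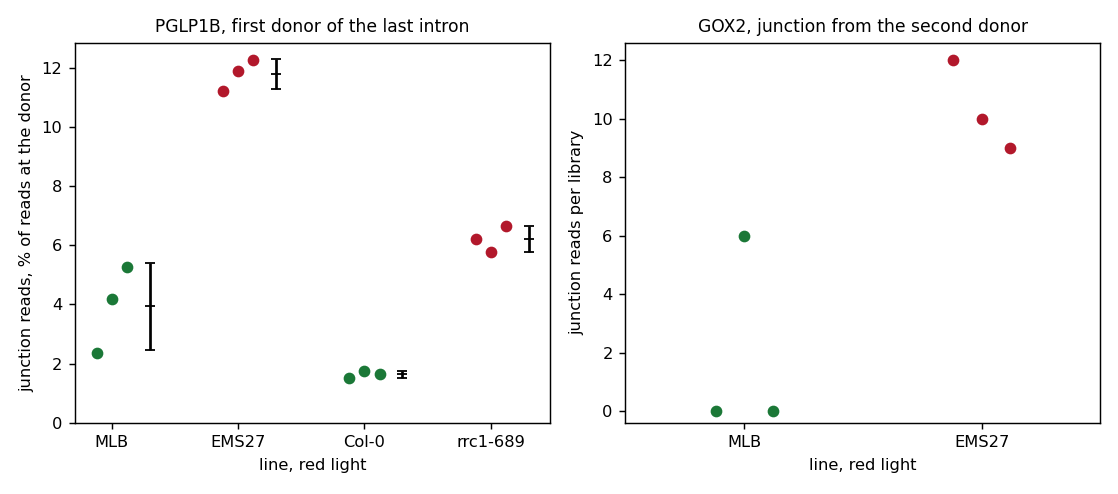
Left, junction reads of the PGLP1B event as a percentage of junction reads plus reads across its donor (vertical axis) in each of 3 red-light libraries per line, with mean and SD beside the points. Right, junction reads per library (vertical axis) from the second GOX2 donor in MLB and EMS27. On the left each mutant lies above its control line in every library, and on the right 2 of 3 MLB libraries are at 0 reads.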

How the data were processed

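Illumina reads were aligned with TopHat2 2.1.1 (build TAIR10), per the submitters' processing notes. Groups were compared by the authors with ASpli 1.9, per the deposited information sheet. They deposited, for genes past both thresholds (log2 fold change beyond 1 in size, FDR under 0.01), a log2 fold change with p-value and FDR, but no level, depth or value per library, so their calls were counted and no gene test was refitted. The log base is not stated, but for 24 genes with a row and at least 100 event reads, log2 ratios of those reads had the same sign in 24 and a slope of 1.07 on the deposited values. Genes tested (19916 and 19143) were recovered from FDR = p × N / rank, which gave whole ranks within 0.01 for 98.0% and 96.9% of listed genes. For splicing events (difference in fraction above 0.05, bin FDR below 0.05) the authors deposited raw read counts per library of each boundary and junction, and the fraction per group over summed reads. They also deposited a score, the difference of fractions. These fractions were recovered within 0.0001 for 325 of 325 and 328 of 328 events. Summed event reads were 24482 to 28447 per library in the EMS27 comparison and 34004 to 38559 in the rrc1-689 comparison, with medians per event of 41 to 49 and 51 to 67.

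For the GOX2 and PGLP1B introns, the level per library is boundary reads over boundary reads plus junction reads, the latter counted doubly. In other kinds of event, the deposited inclusion reads take the place of boundary reads. The excluding reads were counted singly for alternative splice sites and doubly for all other events. The level was tested on the logit scale with 0.5 added to both sums in limma 3.58.1 (R 4.3.3). Benjamini-Hochberg adjustment at 0.05 ran over all listed events. A check on simulated data came first, with limits too wide to test the threshold of 0.05. Limits for 0 reads take 3 counts, and intervals of this kind cover counting error only. Nothing in the labels says that the 3 libraries of each group are separate cultures. The p-values thus rest on the spread among these libraries only, and this may be technical. Same-numbered libraries did not deviate together (correlations 0.03, -0.02 and 0.11, and -0.08, -0.05 and 0), so replicate numbers were not used as pairs.

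Sequences and annotation are from RefSeq TAIR10.1, in which 3841 of 3843 and 1134 of 1135 matched gene identifiers have the coordinates of the deposited tables. Every member with a row was named, and of each related list the 3 largest changes per comparison, and every event in these genes. CAT3, FBA6, CSY3, MFP2 and XCP1 were named beyond that rule after their values were seen. The members, lists and tests were chosen with earlier results of these data known. Values of the other libraries in darkness were not analysed here.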

Additional observations from a re-analysis of the deposited data

How the results depend on the processing

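Stricter thresholds on the authors' calls left the red-light result within 1.5 times. Of the 30 rises, 28 had a log2 fold change above 1.5 (8.05% of all genes tested) and 22 one above 2 (5.13%). An FDR below 0.001 held for 30 (12.6%) and one below 1e-10 for 30 (11%). When 6 genes with near copies were taken out of the 35 (RBCS1B, RBCS2B, RBCS3B, GOX1, GOX2 and PGLP1), 24 rises remained. RBCS1A, whose coding sequence is 90.1% identical to that of RBCS2B, was kept. The comparison of MLB with EMS27 depended on the fold threshold: of 14 genes, 1 (CP12-2) was above 1.5 (1.31% of all genes tested) and 0 were above 2 (0.538%) in log2 fold change, counts of 35 near those shares, whereas 14 had an FDR below 0.001 (3.95%), 13 one below 1e-10 (2.71%) and 10 counted without the near copies. In limma, leaving out 1 library at a time gave 249 to 261 called events in the EMS27 comparison and 250 to 281 in the rrc1-689 comparison, against 291 in each with all libraries. The PGLP1B event kept its direction and an adjusted p under 0.05 in each of the 11 tested alternatives per comparison (difference -1.38 to -0.98, and -1.41 to -1.31). The GOX2 event kept its direction in all 11 (difference -3.49 to -0.84) and lost the call in 6, as given with its values, and without MLB replicate 2, the library with junction reads, its adjusted p was 0.00116. Donor boundary reads alone, an alternative chosen after seeing the data, gave differences of -1.98 for GOX2 and -1.22 and -1.35 for PGLP1B (exact permutation p = 0.1 for each, the smallest possible with 3 against 3 libraries). A replicate block changed no call of these events: 276 and 284 events passed, and adjusted p was 0.0324 for GOX2 and 0.0191 and 0.0106 for PGLP1B. The difference between mutants was 0.15 to 0.16 in its alternatives. A fit over all red libraries of each table was not run apart, because each table holds only the 2 groups compared. The gene tables give no depth, and members without a row cannot be placed.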
